A study of Homo sapiens with 12 samples.

Results

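The genes examined here encode the DNA replication machinery, from origin recognition to the assembly of chromatin behind the fork. They were taken from a fixed list of 48 gene symbols, which were matched by Ensembl identifier to the 57815 genes of each library, and all 48 were found. RNA was sequenced from A549 and H2023 cells, both established lines of lung adenocarcinoma, and from H460 cells, an established line of large cell lung carcinoma. All 3 lines are labelled as positive for a mutation of *KEAP1*, the gene for the inhibitor of NRF2, so every group compared here carries one. NRF2 is the transcription factor that the gene *NFE2L2* encodes. Cells were given control siRNA, or siRNA that targets NRF2, and were harvested 48 h later, which gave 6 groups of 2 libraries. The control libraries were biological duplicates per the methods. The NRF2 siRNA libraries of a line came from different siRNAs, number 28 and number 30, so the spread within such a group also holds whatever sets these siRNAs apart. A549 libraries were depleted of ribosomal RNA and those of H2023 and H460 were selected for polyA, and A549 was grown in high glucose and the others in low glucose medium, so these steps cannot be told apart from a difference between A549 and the other lines.

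Replication starts at sites bound by the origin recognition complex, where licensing factors load the MCM helicase in a form that is not yet active. In S phase, kinases, CDC45 and the GINS proteins turn the loaded ring into a moving helicase, and primase, the replicative polymerases and the PCNA clamp copy the strands that RPA has coated. Many of these genes are transcribed from late G1 onwards under E2F factors, so their RNA is commonly read as a mark of cycling cells.

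*NFE2L2* itself was lower with both siRNAs in every line (ENSG00000116044.11, chr2:178083395-178257484, minus strand, on GRCh37, as are the positions of genes below). Its level was 38.2 and 30.9 FPKM in controls and 5.31 and 7.84 after knockdown in A549, where FPKM is the number of fragments of a gene scaled for its length and for the library's size, and values after knockdown are given for siRNA 28 and then siRNA 30, here and below. Each siRNA library also lay below both control libraries in H2023 and H460. In A549, H2023 and H460, 19.0%, 6.10% and 7.68% of the control mean was left. FPKM was at least 1 for 12732 to 13909 genes per library, and the depth within a line was estimated at 92.7% to 107% of its first control library. The epithelial keratin genes *KRT8* and *KRT18* were at 298 FPKM or more in all 12 libraries and *KRT19* at 7.28 FPKM or more, whereas *EPCAM* and *CDH1* were at 1.19 FPKM or less in H460, and the lung epithelial genes *NKX2-1*, *SFTPB*, *SFTPC* and *NAPSA* were at 1.25 FPKM or less in every library. The summed FPKM of 4 blood cell marker genes and of the 2 of 3 endothelial ones that had a match did not exceed 1.35 and 0.140.

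With control siRNA the replication genes were well expressed in all 3 lines. The control means of A549 spanned 9.14 to 395 FPKM, those of H2023 5.21 to 254 and those of H460 8.74 to 268, and their medians over the 48 genes were 27.2, 23.3 and 28.8 FPKM. The highest was the clamp gene *PCNA* in A549, the helicase gene *MCM4* in H2023 and the polymerase delta subunit gene *POLD2* in H460, and the lowest were *CHAF1B*, *POLA1* and *PRIM2* in the same order. Genes whose products sit in the same ring differed in level per length, *MCM4* being 15.1 times as high as *MCM6* in A549, 8.31 times in H2023 and 7.27 times in H460 by the ratio of control means. The authors' mean normalised count over the 4 libraries of a line was 774 to 15192 for these genes in A549, 146 to 4567 in H2023 and 172 to 3431 in H460. All 48 genes passed the filter of FPKM at least 1 in at least 2 of the 4 libraries in every line.

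In H460, NRF2 knockdown was accompanied by lower expression of most of the replication genes. Differences were tested with limma on log2(FPKM + 1), where an adjusted p under 0.05 is a call. A total of 25 of the 48 genes fell and 0 rose, beside 6.86% lower and 7.12% higher among the 13446 genes tested. The 25 genes were at 17.0% to 43.5% of the control mean, with log2 fold changes of -2.16 to -1.15 and adjusted p-values of 0.0162 to 0.0385, and in all 25 both NRF2 siRNA libraries lay below both control libraries. The median log2 fold change was -1.18 over the 48 genes and -0.01 over all genes tested. Both NRF2 siRNA libraries were below both controls in 46 of the 48 genes, against 31.6% of all genes. By siRNA, 46 genes were below both controls with siRNA 28, against 42.8% of all genes, and 47 with siRNA 30, against 42.9%. Of the 48 genes, 40 had an unadjusted p under 0.05, against 33.7%. In bulk RNA, fewer cells in S phase and less RNA per cell cannot be told apart.

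The number of H460 calls turned on the control libraries, while the median did not: without control library 0 or 1 the median was -1.22 and -1.16 and 0 of the 48 genes passed, against 0.00744% of all genes called lower. Without the library of siRNA 28 or siRNA 30 the test called 32 and 23, against 1478 and 982 of all 13446 genes (7.30% for the latter), and with no filter on low values it called 0% of all 29735 genes and 0 of the 48, with their median still at -1.18. The share of FPKM in mitochondrial transcripts was 8.56% and 13.1% in the H460 control libraries and 20.8% and 26.0% with NRF2 siRNA. With these transcripts left out, 21 genes fell, against 4.16% of all genes, the median was -1.001 for the replication genes and 0.19 for all genes, and the distance between these medians was -1.19, compared with -1.18 before. That scaling also turned the calls among all genes from 49.1% to 28.9% lower. The summed FPKM of 5 epithelial marker genes in H460 was 1142 and 1336 in controls and between 1743 and 2606 after knockdown, and that of 4 fibroblast marker genes was 6.004 and 6.66 in controls and between 12.9 and 18.4 after knockdown. The part of either in the result was not tested. Of these 4 genes in H460, *COL1A2* was at 0.395 FPKM or less, *COL1A1* between 1.81 and 5.94, *COL3A1* between 3.43 and 8.56 and *PDGFRB* between 0.630 and 3.97 FPKM. Of the 5 epithelial genes in H460, *KRT8* was between 553 and 1723 FPKM, *KRT18* between 298 and 483 and *KRT19* between 269 and 461. *EPCAM* and *CDH1* were at 1.19 FPKM or less there.

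**Figure D1:**
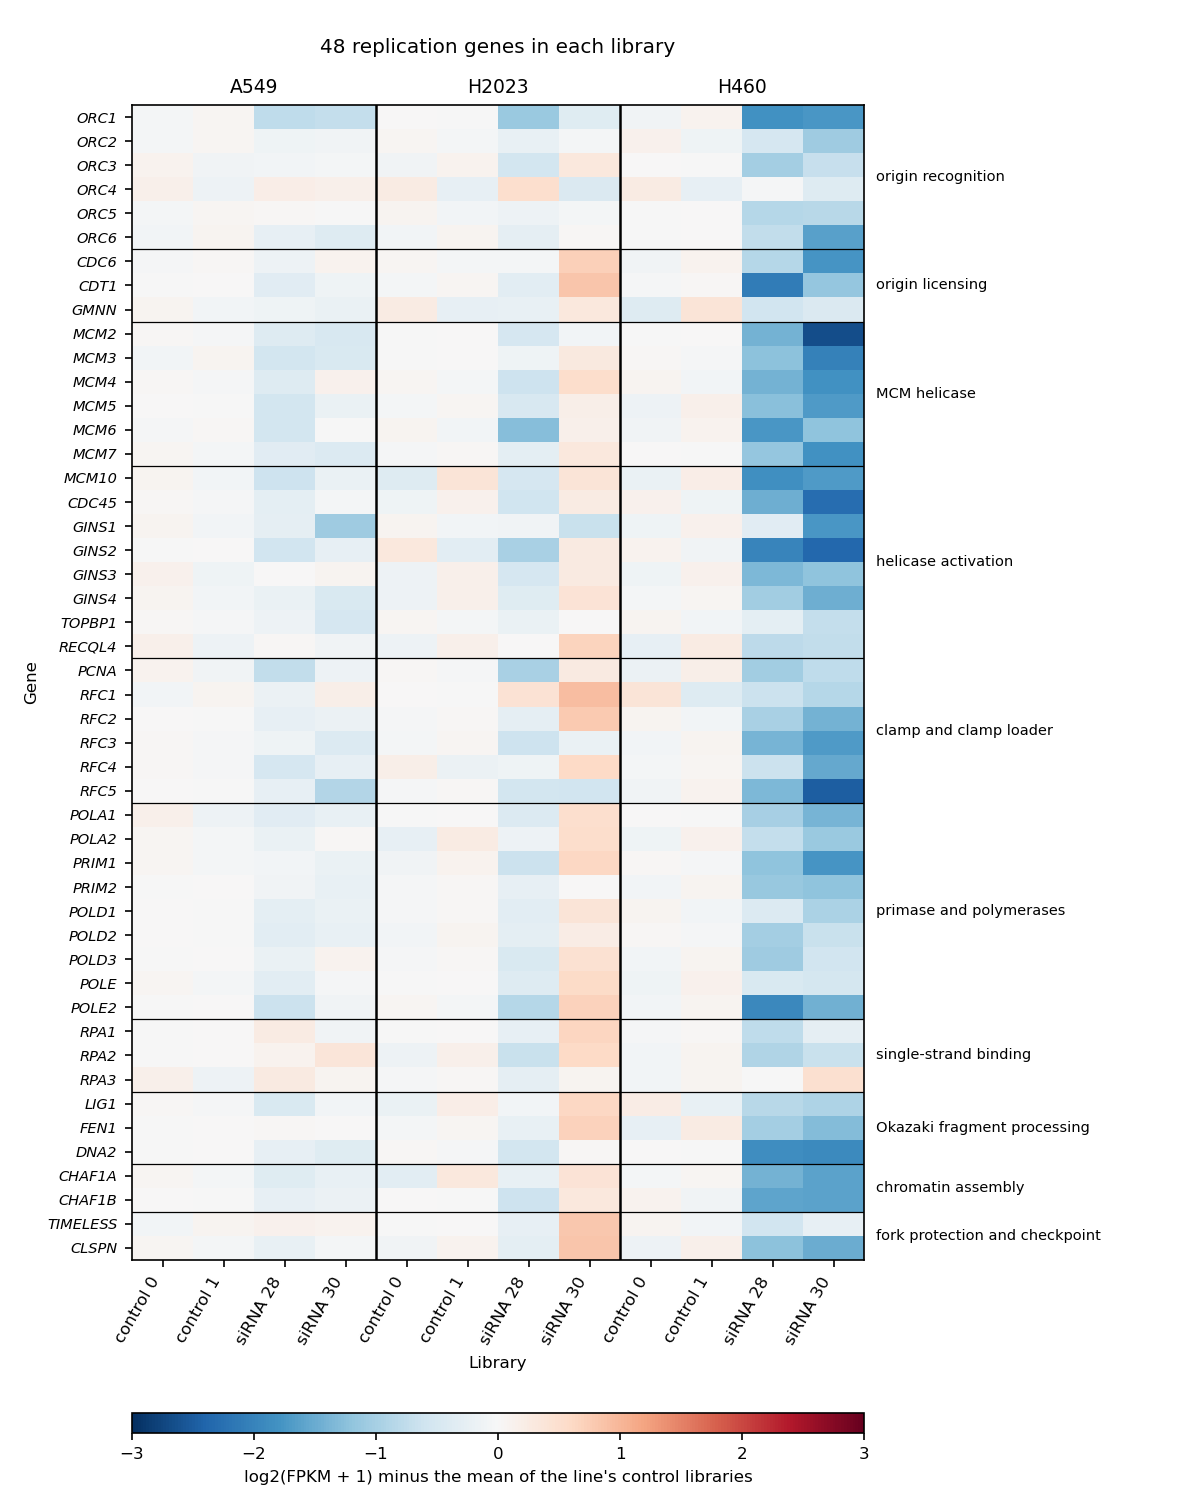
Each row is 1 of the 48 replication genes and each column 1 of the 12 libraries. Colour gives log2(FPKM + 1) minus the mean of the 2 control libraries of the same line, on a linear scale from -3 to 3. In H460 the NRF2 siRNA columns are blue for nearly all genes, with medians of -1.03 for siRNA 28 and -1.34 for siRNA 30. In H2023 the medians are -0.31 for siRNA 28 and 0.32 for siRNA 30.

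As so many of these genes fell together in H460, the letters of their promoters were examined. RefSeq promoter windows on GRCh38.p14, from 250 bases before to 50 bases after the start, were matched for 40 of the 48 genes, and *MCM4*, *MCM5*, *GINS4*, *RECQL4*, *POLD3*, *RPA2*, *RPA3* and *DNA2* had no entry. E2F factors bind the letters TTTCCCGC, TTTCGCGC, TTTGCCGC and TTTGGCGC. A match to any of them on either strand, including matches that overlap on opposite strands, was present in 19 of the 40 windows (47.5%), in 3.33% of all 27305 windows and in 5.46% of the windows of genes tested in H460. The 100 bases just before the start are shown for 5 genes that fell in H460, *MCM6* (chr2:135876444-135876543, minus strand), *MCM7* (chr7:100101398-100101497, minus strand), *RFC3* (chr13:33818049-33818148, plus strand), *GINS2* (chr16:85688955-85689054, minus strand) and *CDT1* (chr16:88803689-88803788, plus strand), and for 4 that were not called there, *ORC3* (chr6:87590035-87590134, plus strand), *POLA2* (chr11:65261862-65261961, plus strand), *POLE* (chr12:132687343-132687442, minus strand) and *PCNA* (chr20:5126623-5126722, minus strand). These are all 9 of the 40 genes with a whole match to the E2F letters within these bases, and capitals mark those letters on either strand, 5′ to 3′ in the direction of the gene.
MCM6: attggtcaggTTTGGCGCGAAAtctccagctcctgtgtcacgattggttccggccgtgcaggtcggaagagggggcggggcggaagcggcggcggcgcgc
MCM7: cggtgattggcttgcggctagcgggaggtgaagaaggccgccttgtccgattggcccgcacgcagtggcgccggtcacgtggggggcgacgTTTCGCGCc
RFC3: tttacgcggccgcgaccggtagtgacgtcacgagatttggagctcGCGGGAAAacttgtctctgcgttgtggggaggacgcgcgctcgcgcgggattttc
GINS2: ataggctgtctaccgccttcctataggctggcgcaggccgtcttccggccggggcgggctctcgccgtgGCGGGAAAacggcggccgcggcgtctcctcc
CDT1: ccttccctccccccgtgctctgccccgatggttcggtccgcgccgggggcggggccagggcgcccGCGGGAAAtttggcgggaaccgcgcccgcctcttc
ORC3: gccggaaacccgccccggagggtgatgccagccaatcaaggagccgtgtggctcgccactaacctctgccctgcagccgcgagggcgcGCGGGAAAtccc
POLA2: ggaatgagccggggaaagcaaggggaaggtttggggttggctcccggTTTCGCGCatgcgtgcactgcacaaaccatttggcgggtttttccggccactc
POLE: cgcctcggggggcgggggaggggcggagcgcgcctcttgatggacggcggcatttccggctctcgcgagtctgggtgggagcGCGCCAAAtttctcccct
PCNA: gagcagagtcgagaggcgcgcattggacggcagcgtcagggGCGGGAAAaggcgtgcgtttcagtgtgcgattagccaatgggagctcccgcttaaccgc

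In *MCM6* the capitals hold 2 runs that overlap on opposite strands, and in *MCM7* only 1 base separates the capitals from the start. In H460, 11 of the 19 genes with the E2F letters and 10 of the 21 without them fell, with median log2 fold changes of -1.31 and -1.15. The CCAAT box (CCAAT) was in 23 of the 40 windows (57.5%) and in 35.7% of all windows. The CHR element (TTTGAA), known from promoters of mitotic genes, was in 0 of 40 and in 15.4% of all windows. The core of the antioxidant response element (TGACNNNGC), the motif NRF2 binds with small MAF proteins, was in 7 of 40 (17.5%) and in 13.6% of all windows. These matches describe letters and were not tested as binding sites.

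**Figure D2:**
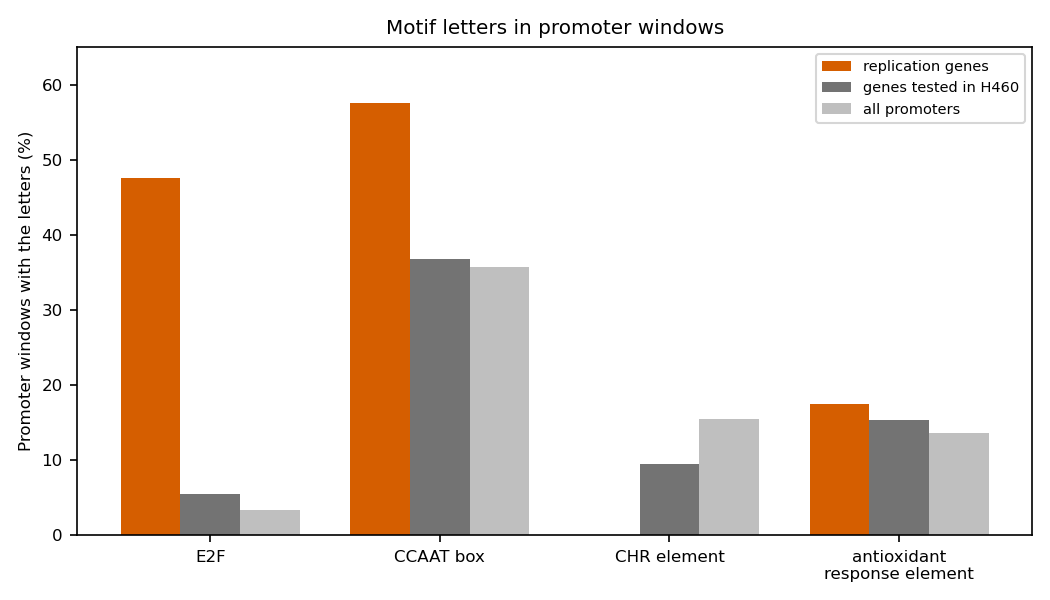
Bars give the percentage of promoter windows that hold the letters of each motif on either strand, for the 40 replication genes with a window, for the 9939 genes tested in H460 with a window, and for all 27305 windows. The E2F bar of the replication genes stands at 47.5%, against 5.46% and 3.33%, while the bars of the antioxidant response element lie between 13.6% and 17.5%.

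Among the genes for origin recognition, *ORC1*, which encodes the largest subunit of the complex, changed most in H460 (ENSG00000085840.8, chr1:52838501-52870095, minus strand). Its level was 11.3 and 13.1 FPKM in controls and 2.73 and 2.92 after knockdown, and its log2 fold change, given here and below with its standard error, was -1.79 ± 0.26, adjusted p = 0.0188. *ORC1* was the 1 gene of 6 in this group that fell, and its NRF2 siRNA libraries also lay below both controls in A549 (11.2 and 12.3 FPKM in controls and 6.54 and 6.79 after knockdown) and in H2023 (15.2 and 14.8 FPKM in controls and 6.404 and 11.4 after knockdown). The adjusted p was 0.145 in A549 and 0.291 in H2023. *ORC4*, the most abundant subunit gene, was at 51.3 and 35.6 FPKM in controls and 41.9 and 32.7 after knockdown in H460. It was at 31.7 and 25.7 FPKM in controls and 32.7 and 31.7 after knockdown in A549 and at 25.3 and 17.6 FPKM in controls and 30.5 and 15.3 after knockdown in H2023. Its groups overlapped in H460, where its sign turned without mitochondrial transcripts (0.0097) and without the control library 0 (0.0527), and it overlaps the coding genes *ACVR2A* and *MBD5*. *ORC2*, *ORC3*, *ORC5* and *ORC6* had H460 log2 fold changes of -1.18 to -0.79 and adjusted p-values of 0.0562 to 0.105.

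Of the licensing factors, *CDT1* fell in H460 and *CDC6* did not pass the test. *CDT1* brings the MCM ring to the origin, and its level was 38.3 and 39.7 FPKM in controls and 8.38 and 16.9 after knockdown (-1.62 ± 0.34, adjusted p = 0.0325). *CDC6*, the ATPase that loads the ring with it, was at 28.01 and 33.0 FPKM in controls and 16.3 and 8.20 after knockdown (-1.31 ± 0.34, adjusted p = 0.0523), and here too both NRF2 siRNA libraries lay below both controls. *CDC6* was at 46.3 and 48.5 FPKM in controls and 42.8 and 50.7 after knockdown in A549 and at 31.4 and 28.4 FPKM in controls and 28.5 and 49.2 after knockdown in H2023. In H2023 its library of siRNA 30 stood above the others. For *CDT1* there, levels were 22.2 and 24.1 FPKM in controls and 18.5 and 41.8 after knockdown. The siRNA 28 library lay below both controls and the siRNA 30 library above both. *GMNN* encodes geminin, the inhibitor of CDT1, and had a log2 fold change of -0.50 ± 0.31 in H460 (adjusted p = 0.316).

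All 6 genes of the MCM helicase fell in H460, and the 6 log2 fold changes lay between -2.03 and -1.47. *MCM2* was at 101 and 103 FPKM in controls and 37.6 and 15.4 after knockdown, which was 26.0% of the control mean (-2.03 ± 0.40, adjusted p = 0.0299). *MCM4* was at 261 and 233 FPKM in controls and 92.3 and 69.4 after knockdown (-1.61 ± 0.24, adjusted p = 0.0188). *MCM5* was at 82.1 and 103 FPKM in controls and 37.8 and 27.7 after knockdown (-1.47 ± 0.25, adjusted p = 0.0227). The groups did not overlap for any of the 6 genes in H460, and siRNA 30 gave the lower value for all but *MCM6*. *MCM6*, whose promoter letters are shown above, was at 31.4 and 36.5 FPKM in controls and 9.46 and 14.2 after knockdown (-1.47 ± 0.27, adjusted p = 0.0263). *MCM7*, which overlaps the coding gene *AP4M1*, was at 191 and 186 FPKM in controls and 83.9 and 52.6 after knockdown (-1.49 ± 0.27, adjusted p = 0.026). *MCM3* was at 73.6 and 68.9 FPKM in controls and 29.5 and 16.6 after knockdown (-1.64 ± 0.30, adjusted p = 0.0263), so the ring genes reached 26.0% to 36.2% of their control means.

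In A549 the same 6 genes had log2 fold changes of -0.51 to -0.13, with adjusted p-values of 0.24 or more. *MCM3*, with the change of greatest size among them, was at 71.1 and 79.9 FPKM in controls and 50.9 and 54.5 after knockdown in A549 (-0.51 ± 0.14, adjusted p = 0.24), and its groups did not overlap. *MCM4* was at 277 and 265 FPKM in controls and 208 and 295 after knockdown and *MCM5* at 104 and 101 FPKM in controls and 69.7 and 89.1 after knockdown. The siRNA libraries of *MCM4* lay on either side of the controls, and those of *MCM5* both lay below them. In H2023 all 6 MCM genes were below both controls with siRNA 28, whereas with siRNA 30 5 of them were above both, as in *MCM4* with 266 and 243 FPKM in controls and 165 and 368 after knockdown and *MCM5* with 84.7 and 91.2 FPKM in controls and 63.1 and 99.3 after knockdown.

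**Figure D3:**
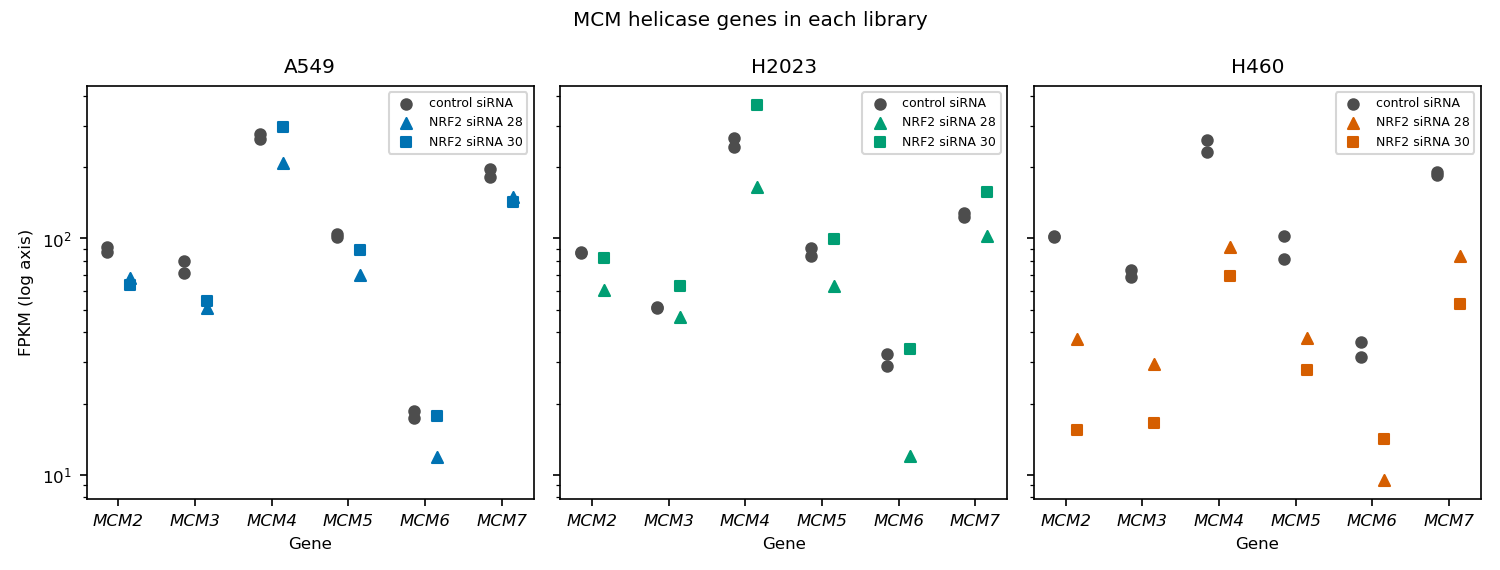
FPKM on a log axis of the 6 MCM helicase genes, with 1 panel per line, circles for the 2 control siRNA libraries, triangles for NRF2 siRNA 28 and squares for NRF2 siRNA 30. In H460 every triangle and square lies below the circles, MCM2 falling to 37.6 and 15.4 FPKM. In H2023 the triangles lie below the circles and 5 of the 6 squares above them.

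The genes that turn the loaded ring into an active helicase held the change of greatest size among the 48. *GINS2*, a subunit of the GINS complex (ENSG00000131153.4, chr16:85709804-85723679, minus strand), was at 14.9 and 12.9 FPKM in controls and 2.80 and 1.93 after knockdown in H460, or 17.0% of the control mean (-2.16 ± 0.28, adjusted p = 0.0162). *GINS2* overlaps the coding gene *GSE1*. *CDC45*, which joins GINS on the ring, was at 30.7 and 25.5 FPKM in controls and 9.52 and 4.99 after knockdown (-1.87 ± 0.33, adjusted p = 0.0241). *MCM10*, needed to start the active helicase, was at 22.4 and 30.1 FPKM in controls and 6.54 and 7.32 after knockdown (-1.77 ± 0.26, adjusted p = 0.0188). In all 3 genes the groups were separate in H460. In A549 *GINS2* was at 25.8 and 26.6 FPKM in controls and 17.2 and 21.9 after knockdown. *CDC45* there was at 23.4 and 22.6 FPKM in controls and 18.5 and 22.04 after knockdown and *MCM10* at 34.9 and 31.2 FPKM in controls and 21.1 and 28.8 after knockdown. For these 3 genes, each siRNA library of A549 also lay below both controls. In H2023 *GINS2* was at 15.7 and 9.68 FPKM in controls and 5.78 and 15.1 after knockdown. *CDC45* was at 16.1 and 19.4 FPKM in controls and 11.4 and 21.0 after knockdown and *MCM10* at 14.1 and 24.5 FPKM in controls and 12.9 and 24.7 after knockdown. The library of siRNA 28 gave the lowest of the 4 values in H2023 each time. *GINS3* and *GINS4* also fell in H460, which made 5 of 8 genes of this group. *GINS1* did not pass the test (-1.05 ± 0.47, adjusted p = 0.175), with 8.95 and 11.1 FPKM in controls and 7.61 and 2.26 after knockdown. The helicase gene *RECQL4* was at 14.2 and 20.5 FPKM in controls and 9.40 and 9.87 after knockdown in H460 (-0.76 ± 0.27, adjusted p = 0.107). It was at 40.4 and 32.9 FPKM in controls and 37.2 and 33.7 after knockdown in A549 and at 25.6 and 31.4 FPKM in controls and 28.3 and 45.3 after knockdown in H2023. *TOPBP1*, a scaffold that also activates the checkpoint kinase ATR, was not called in H460 either (-0.51 ± 0.26, adjusted p = 0.218).

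For the sliding clamp and its loader, 3 of 6 genes fell in H460, namely *RFC2*, *RFC3* and *RFC5*, which encode small subunits of the loader. *RFC5* was at 44.6 and 50.9 FPKM in controls and 18.1 and 7.73 after knockdown (-1.91 ± 0.39, adjusted p = 0.0307), and *RFC3* was at 13.6 and 15.3 FPKM in controls and 4.86 and 3.71 after knockdown (-1.55 ± 0.27, adjusted p = 0.0227). Both siRNA libraries lay below both controls in each gene. *RFC3* was at 20.8 and 20.0 FPKM in controls and 18.7 and 15.2 after knockdown in A549 and at 12.4 and 13.8 FPKM in controls and 8.12 and 11.3 after knockdown in H2023, below both controls in every siRNA library of these lines as well. *RFC4*, another small loader subunit, was at 19.4 and 20.9 FPKM in controls and 12.5 and 6.35 after knockdown and was not called (-1.08 ± 0.34, adjusted p = 0.079). *PCNA*, the clamp itself, was at 145 and 187 FPKM in controls and 79.3 and 96.8 after knockdown (-0.90 ± 0.24, adjusted p = 0.0544), so its groups were separate although the adjusted p missed the threshold. In A549, where *PCNA* was most abundant, its level was 421 and 368 FPKM in controls and 235 and 353 after knockdown (-0.45 ± 0.23, adjusted p = 0.473). *RFC1*, the large loader subunit, was at 44.2 and 43.4 FPKM in controls and 59.3 and 83.9 after knockdown in H2023 and at 122 and 71.5 FPKM in controls and 59.1 and 51.3 after knockdown in H460. These are opposite directions, and neither passed the test (adjusted p = 0.215 and 0.135).

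Of 9 primase and polymerase genes, 4 fell in H460. *PRIM1* and *PRIM2* encode the catalytic and the large subunit of primase, and *POLA1* the catalytic subunit of polymerase alpha to which primase is bound. *PRIM1* was at 39.5 and 37.1 FPKM in controls and 16.04 and 10.5 after knockdown (-1.49 ± 0.27, adjusted p = 0.0252), and *PRIM2*, whose value is uncertain because its reads may be shared with duplicated sequence, was at 8.17 and 9.30 FPKM in controls and 3.42 and 3.23 after knockdown (-1.17 ± 0.26, adjusted p = 0.0365). *POLE2*, an accessory subunit of the leading strand polymerase epsilon, was at 17.9 and 20.0 FPKM in controls and 4.18 and 6.32 after knockdown (-1.69 ± 0.28, adjusted p = 0.0217). In A549 *POLE2* was at 23.3 and 23.5 FPKM in controls and 14.7 and 21.6 after knockdown and *PRIM1* at 28.2 and 26.03 FPKM in controls and 25.4 and 23.6 after knockdown, with all siRNA values below the controls. *PRIM1* in H2023 was at 19.4 and 23.0 FPKM in controls and 13.1 and 33.2 after knockdown, so there the siRNA libraries lay on either side of the controls. The catalytic gene of that polymerase, *POLE*, was not called, with 19.9 and 23.9 FPKM in controls and 15.6 and 14.8 after knockdown (-0.49 ± 0.23, adjusted p = 0.195). *POLD2*, an accessory subunit of polymerase delta and the most abundant gene of the group, was at 276 and 260.4 FPKM in controls and 132 and 169 after knockdown in H460. It was at 139 and 137 FPKM in controls and 110.4 and 119 after knockdown in A549 and at 209 and 230.4 FPKM in controls and 177 and 254 after knockdown in H2023. *POLA2*, the accessory subunit of polymerase alpha, was at 30.4 and 36.8 FPKM in controls and 19.8 and 15.0 after knockdown (-0.92 ± 0.25, adjusted p = 0.0589) and was not called. The polymerase delta genes *POLD1*, *POLD2* and *POLD3* had H460 log2 fold changes of -0.69 ± 0.27, -0.84 ± 0.23 and -0.82 ± 0.29, with adjusted p-values of 0.0603 to 0.13. All 9 genes lay below both controls with both siRNAs in H460, and whether the called and uncalled subunits differ from each other was not tested.

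The 3 RPA genes, which encode the single-strand binding protein, were the 1 group with 0 calls in H460. *RPA1* was at 36.4 and 38.6 FPKM in controls and 21.8 and 30.7 after knockdown (-0.52 ± 0.25, adjusted p = 0.2) and *RPA2* at 37.4 and 42.5 FPKM in controls and 21.0 and 24.6 after knockdown (-0.78 ± 0.22, adjusted p = 0.065), both with separate groups. *RPA3* was the 1 gene of 48 with a log2 fold change above 0 in H460, at 24.7 and 27.6 FPKM in controls and 26.1 and 36.6 after knockdown (0.23 ± 0.25, adjusted p = 0.564). Its libraries overlapped, its sign turned without the siRNA 30 library (-0.0038), and *RPA3* overlaps the coding gene *UMAD1*. In A549 *RPA2* was at 25.6 and 25.7 FPKM in controls and 27.7 and 33.1 after knockdown and *RPA3* at 30.4 and 24.02 FPKM in controls and 33.0 and 28.9 after knockdown. In H2023 *RPA2* was at 34.4 and 42.2 FPKM in controls and 23.6 and 58.6 after knockdown and *RPA3* at 28.04 and 29.6 FPKM in controls and 23.7 and 30.7 after knockdown. *RPA2* was thus above both controls with both siRNAs in A549, and in H2023 both genes were lower than both controls with siRNA 28 and higher with siRNA 30.

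Among the genes that finish Okazaki fragments, *DNA2* and *FEN1* fell in H460 and *LIG1* was not called. *DNA2*, a nuclease and helicase (ENSG00000138346.10, chr10:70173821-70231878, minus strand), was at 12.1 and 12.1 FPKM in controls and 2.60 and 2.498 after knockdown, or 21.1% of the control mean (-1.88 ± 0.25, adjusted p = 0.0168), and the replicates of *DNA2* were close to each other in both groups. *FEN1*, the flap endonuclease, was at 37.6 and 53.2 FPKM in controls and 21.7 and 17.7 after knockdown (-1.15 ± 0.26, adjusted p = 0.0385), and it overlaps the coding gene *FADS2*. *LIG1*, the ligase that seals the fragments, was at 49.2 and 36.0 FPKM in controls and 23.4 and 21.6 after knockdown (-0.87 ± 0.25, adjusted p = 0.062), with separate groups. In A549 *DNA2* was at 15.8 and 15.98 FPKM in controls and 13.3 and 12.1 after knockdown and *LIG1* at 52.9 and 50.9 FPKM in controls and 37.8 and 49.2 after knockdown. In H2023 *DNA2* was at 9.37 and 8.95 FPKM in controls and 5.93 and 9.36 after knockdown and *LIG1* at 40.0 and 53.1 FPKM in controls and 43.2 and 71.9 after knockdown. *DNA2* lay below both controls with both siRNAs in A549, whereas in H2023 the siRNA 30 value lay between the controls.

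Both chromatin assembly genes fell in H460. *CHAF1A* and *CHAF1B* encode subunits of the complex that deposits histones on new DNA. *CHAF1A* was at 38.3 and 41.8 FPKM in controls and 14.2 and 12.4 after knockdown (-1.52 ± 0.22, adjusted p = 0.0188) and *CHAF1B* at 15.8 and 13.7 FPKM in controls and 4.27 and 4.15 after knockdown (-1.59 ± 0.25, adjusted p = 0.0204), with separate groups in each. *CHAF1A* was at 20.7 and 19.2 FPKM in controls and 15.4 and 17.0 after knockdown in A549 and at 22.1 and 34.9 FPKM in controls and 23.9 and 37.3 after knockdown in H2023. *CHAF1B* was at 9.23 and 9.06 FPKM in controls and 7.58 and 8.03 after knockdown in A549 and at 13.5 and 13.5 FPKM in controls and 8.46 and 17.2 after knockdown in H2023. Both genes were below the controls with both siRNAs in A549 and above them with siRNA 30 in H2023, and they overlap the coding genes *UBXN6* and *MORC3*. Of the fork protection and checkpoint genes, *CLSPN*, which encodes the mediator claspin, fell (14.4 and 18.1 FPKM in controls and 6.27 and 5.12 after knockdown; -1.36 ± 0.27, adjusted p = 0.0294). *TIMELESS*, which encodes a fork protection factor, was at 41.0 and 36.7 FPKM in controls and 25.8 and 32.4 after knockdown in H460 (-0.41 ± 0.23, adjusted p = 0.263). It was at 17.2 and 19.7 FPKM in controls and 20.2 and 19.8 after knockdown in A549 and at 30.6 and 30.8 FPKM in controls and 25.6 and 54.8 after knockdown in H2023. Its siRNA values were below both controls in H460 and above both in A549. In all, 13 of the 48 genes overlap another coding gene.

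**Figure D4:**
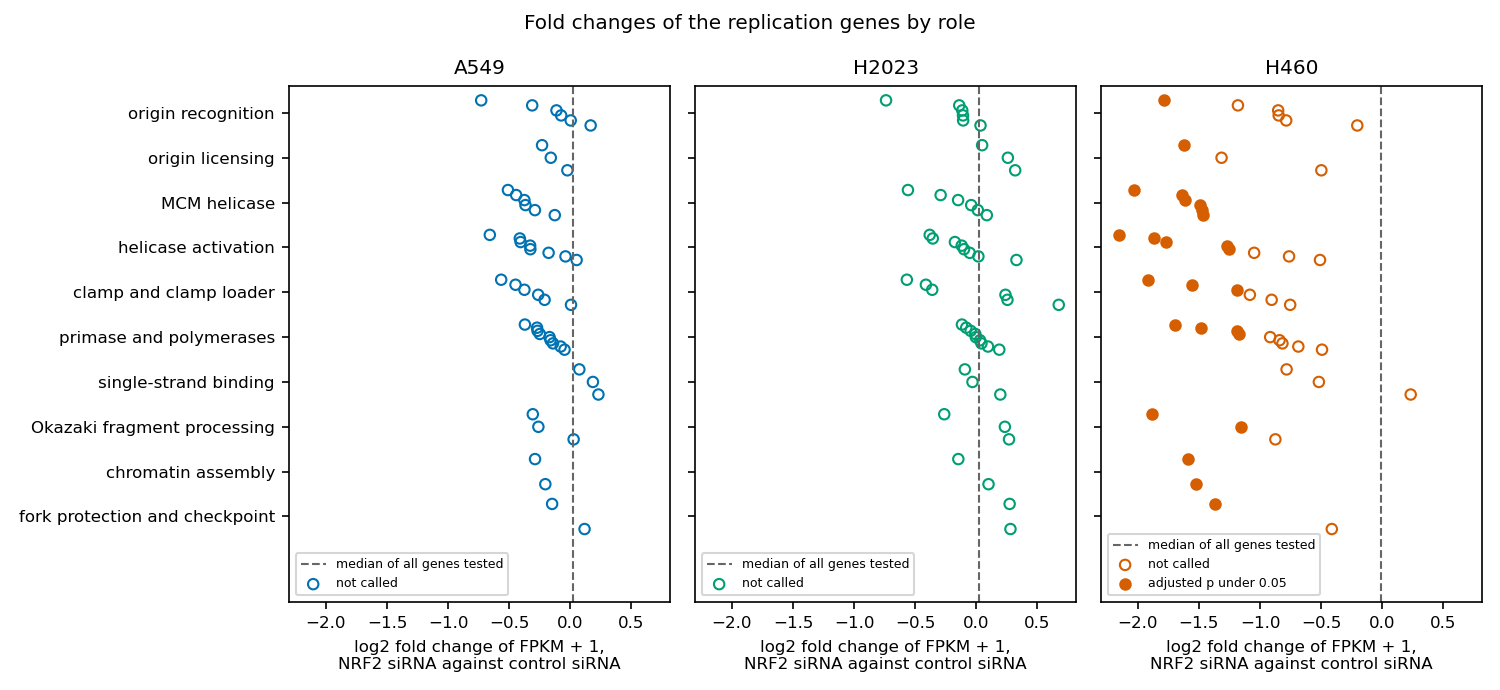
Each circle is the log2 fold change of 1 replication gene, grouped by role, with 1 panel per line. Filled circles have an adjusted p under 0.05 and dashed lines mark the median of all genes tested. Filled circles occur in the H460 panel, where 25 of 48 genes fell. In A549 and H2023 the 48 genes are spread from -0.73 to 0.23 and from -0.74 to 0.68.

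In A549, 0 of the 48 genes were called by limma, beside 0.554% lower and 0.122% higher among the 13898 genes tested, and 6 had an unadjusted p under 0.05, against 13.3% of all genes. The median log2 fold change was -0.22, with 39 genes below 0, and the median gene stood at 85.1% of its control mean. Both NRF2 siRNA libraries were below both controls in 31 of the 48 genes, against 20.5% of all genes. The 3 RPA genes were at 0.07 to 0.23 and the 6 MCM genes at -0.51 to -0.13 on the log2 scale. Of the 48 genes, 33 were below 0 under all 12 alternatives tried for this line and 10 changed sign under some. *ORC1* had the change of greatest size, at 56.9% of its control mean (-0.73 ± 0.15).

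In H2023 limma also called 0 of the 48 genes, beside 0.583% lower and 0.327% higher among the 14059 genes tested, and 3 had an unadjusted p under 0.05, against 16.9%. The median log2 fold change was -0.04, and both siRNA libraries were below both controls in 6 genes, against 22.0% of all genes. This median covers a split between the siRNA libraries. Each siRNA had a single library in this line, so an siRNA effect and the spread of single libraries cannot be told apart. Against the control mean the 48 genes had a median of -0.31 with siRNA 28 and of 0.32 with siRNA 30. With siRNA 28, 39 of the 48 genes were below both controls, against 37.6% of all genes, and with siRNA 30, 35 were above both, against 44.1%. A total of 38 genes were below the control mean with siRNA 28 and above it with siRNA 30, against 17.3% of all genes. *POLE2* was an example, at 7.45 and 6.76 FPKM in controls and 3.51 and 11.99 after knockdown, as was *PCNA* at 118 and 112 FPKM in controls and 57.7 and 137 after knockdown. Leaving out the siRNA 28 library gave a median of 0.32 and 5 genes that rose, against 3.47% of all genes in that fit, and leaving out the siRNA 30 library gave -0.31 and 3 that fell, against 3.40%. The share of FPKM in mitochondrial transcripts was 11.97% and 18.1% in the H2023 control libraries and 17.3% and 22.8% with NRF2 siRNA, and with these transcripts left out the median was 0.0501 for the replication genes and 0.0998 for all genes. The summed FPKM of the 5 epithelial marker genes in H2023 was 2129 and 2547 in controls and between 4624 and 5273 after knockdown. That of the 4 fibroblast genes was between 1.97 and 4.20 in controls and between 3.64 and 8.78 after knockdown, and that of the 4 blood cell genes between 0.328 and 0.544 and then between 0.846 and 0.945. The part of these markers in the H2023 values was not tested.

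The NRF2 siRNAs were compared directly in the 6 knockdown libraries, with the line as a covariate. Limma called 0 of the 48 genes and 0% of the 15716 genes tested, and 8 of the 48 and 18.2% of all genes had an unadjusted p under 0.05. In H2023 45 of the 48 genes were lower with siRNA 28 than with siRNA 30, in A549 29, and in H460 17, against 47.3%, 41.5% and 47.2% of all genes. A total of 11 genes were lower with siRNA 28 in all 3 lines, against 18.1%, and 3 were lower with siRNA 30 in all 3, against 24.2%, namely *ORC4*, *GINS1* and *RFC5*. With siRNA 28 and siRNA 30 *GINS1* was at 41.0 and 23.2 FPKM in A549, 10.6 and 6.77 in H2023 and 7.61 and 2.26 in H460, a log2 difference of 0.92 ± 0.20 (SE) between siRNA 28 and siRNA 30, with an adjusted p of 0.153. With the control libraries added to the fit 7 genes were lower and 2 higher with siRNA 28, against 3.54% and 5.68% of all genes.

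**Figure D5:**
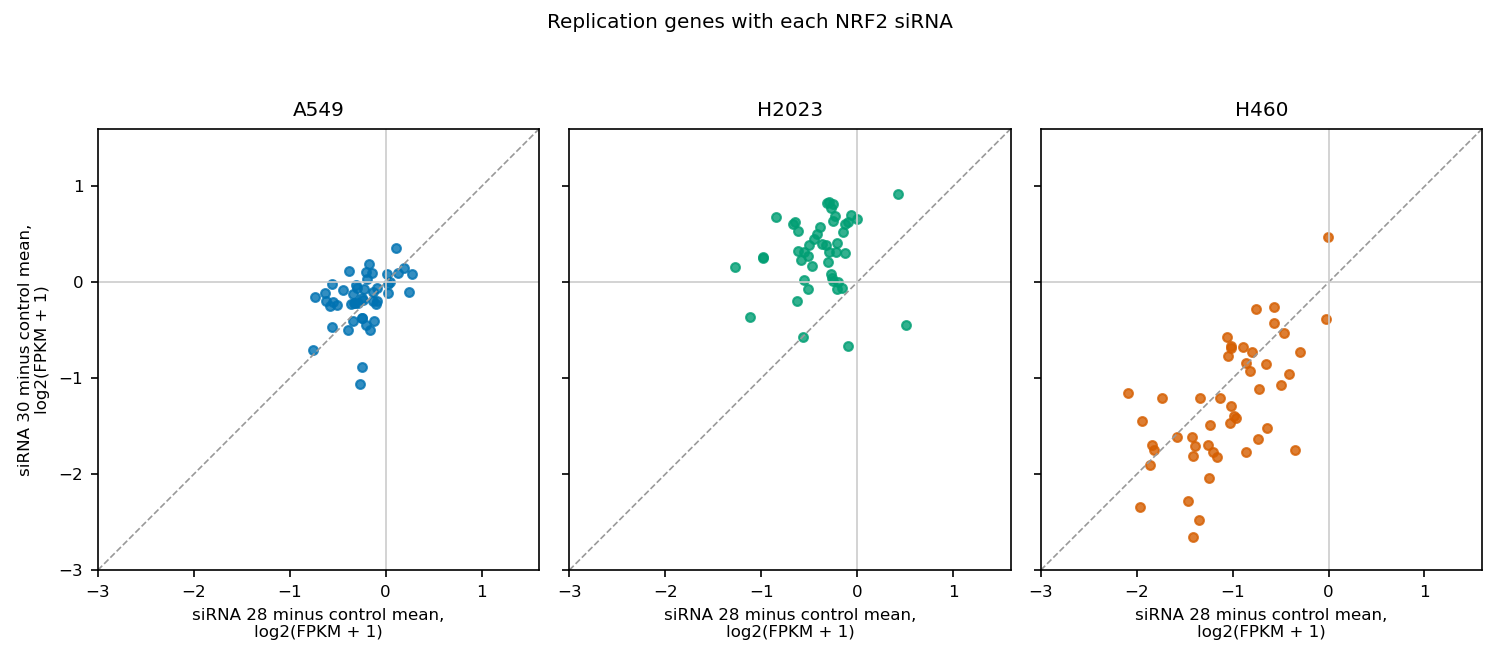
Each point is 1 of the 48 replication genes, placed by log2(FPKM + 1) minus the control mean with siRNA 28 (horizontal) and with siRNA 30 (vertical), with 1 panel per line and the dashed line marking equal values. Both axes use the same control libraries. In H2023 45 of 48 points lie above the dashed line, whereas in H460 31 lie below it and 46 of the siRNA 28 values are below both controls.

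Averaged over the lines in 1 fit of all 12 libraries, 25 of the 48 genes were lower and 0 higher, beside 14.5% lower and 15.1% higher among the 11571 genes tested, with a median of -0.46 against -0.01 for all genes. Of these 25, 20 were also called in H460, and *ORC2*, *ORC5*, *ORC6*, *GINS1* and *POLD2* were called on average only. *ORC1* had the average effect of greatest size (-1.09 ± 0.13, adjusted p = 0.000419), followed by *RFC5* (-1.02 ± 0.18, adjusted p = 0.00263), *GINS2* (-0.98 ± 0.21, adjusted p = 0.00651) and *MCM2* (-0.92 ± 0.16, adjusted p = 0.00232). All 6 MCM genes and 6 of the 8 helicase activation genes were called, while 0 of 3 licensing genes and 0 of 3 RPA genes were, and whether these groups differ was not tested. *RPA3* was the 1 gene above 0 (0.11 ± 0.12, adjusted p = 0.539), and *ORC4* and *TIMELESS* were also above 0 without mitochondrial transcripts (0.0981 and 0.0940) and with median-ratio scaling (0.0365 and 0.0318). In H2023, 39 of the 48 genes changed sign under some of the 12 alternatives tried for that line. A total of 23 of the 48 genes had log2 fold changes below 0 in each of the 3 lines, against 26.0% of all genes. This count rests on such signs. The number called lower was 10 and 12 without the H460 control library 0 and 1, against 6.97% and 8.43% of all genes, and 16 and 14 without the H2023 control library 0 and 1, against 8.42% and 8.71%. It was 39 without the H2023 siRNA 30 library, against 16.4%, and 15 without mitochondrial transcripts, against 9.18%, a scaling that turned the calls among all genes from 48.9% to 31.8% lower.

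Although calls were made in H460 alone, a difference between lines was shown for few of these genes. The test of any difference between lines called 0 of the 48, beside 0.786% of all genes, and 28 of the 48 had an unadjusted p under 0.05, against 19.3%. In pairs of lines, A549 had a higher (less negative) log2 fold change than H460 for *DNA2* (1.58 ± 0.29, adjusted p = 0.0311) and *RFC3* (1.29 ± 0.30, adjusted p = 0.0483). Among all genes, 1.62% were higher in this sense and 1.37% lower, the latter with 0 of the 48. H2023 and H460 differed by limma in 0 genes (0.320% higher and 0.337% lower among all genes), and so did A549 and H2023 (0.0173% and 0.0346%). At an unadjusted p under 0.05, 29 genes differed between A549 and H460 (22.1% of all genes), 33 between H2023 and H460 (18.1%) and 0 between A549 and H2023 (7.55%). Across the 48 genes, which are not independent replicates, the log2 fold changes of A549 and H460 had a Spearman rho of 0.60, those of H2023 and H460 0.42 and those of A549 and H2023 0.47. These counts turned on single libraries: without the siRNA 28 library of H2023 or H460 the test of any difference called 23 and 9 genes, against 4.91% and 5.06% of all genes. In the same order, H2023 against H460 gave 34 and 11 genes higher, against 3.81% and 2.71%, and A549 against H460 gave 10 and 16, against 1.63% and 5.09%. The last of these called 0 without any 1 of the 4 control libraries of A549 and H460, 9 without the siRNA 30 library of H2023 (173 of all 11571 genes), and 1 without mitochondrial transcripts (0.645%).

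Of 31 other replisome genes tested, 13 fell and 1 rose in H460, beside 6.86% and 7.12% of all genes, with a median of -0.88. *EXO1*, a nuclease of replication and mismatch repair, was at 140.4 and 163 FPKM in controls and 22.7 and 18.5 after knockdown (-2.83 ± 0.23, adjusted p = 0.00965), and *WDHD1*, which ties polymerase alpha to the helicase, and *DBF4*, the activator of the *CDC7* kinase, had log2 fold changes of -1.61 ± 0.26 and -1.58 ± 0.23. The gene that rose was *POLD4*, the smallest subunit of polymerase delta, which overlaps the coding genes *RAD9A* and ENSG00000256514, at 9.10 and 13.3 FPKM in controls and 56.4 and 79.0 after knockdown (2.49 ± 0.29, adjusted p = 0.0132). In A549 *POLD4* was at 101 and 73.5 FPKM in controls and 116 and 97.6 after knockdown and in H2023 at 23.4 and 27.1 FPKM in controls and 38.1 and 40.6 after knockdown, and neither passed the test (adjusted p = 0.576 and 0.177). *EXO1* was named after its values were seen, and *DBF4* overlaps the coding gene *SLC25A40*.

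Of 13 E2F and RB family genes 1 fell in H460, a share near the 6.86% of all genes, and the median was -0.71. It was the E2F partner *TFDP1* (-0.81 ± 0.20, adjusted p = 0.0481). On average over the lines 2 of these 13 genes were called lower, a share near the 14.5% of all genes. *RBL1*, which encodes the RB relative p107, was 1 of them (-0.57 ± 0.11, adjusted p = 0.00364). Of 8 cyclin and kinase genes of G1 and S phase tested, *CDK2* and *CCNA2* fell, and of 12 checkpoint genes *CHEK1*, *SKP2*, *DTL* and *CDC25A* fell, the last 2 and *TFDP1* being named after their values were seen. *CHEK1*, the kinase downstream of claspin, which overlaps the coding genes *ACRV1* and *STT3A*, was at 37.1 and 31.9 FPKM in controls and 17.8 and 11.1 after knockdown in H460 (-1.23 ± 0.29, adjusted p = 0.0402). *CDKN1A*, which encodes the CDK inhibitor p21, was the 1 of 4 CDK inhibitor genes that rose in H460, against 7.12% of all genes. Its level was 23.9 and 21.0 FPKM in controls and 129.6 and 57.1 after knockdown (1.90 ± 0.39, adjusted p = 0.0314). Of 20 mitosis genes, 13 fell in H460 with a median of -1.38, and *CDC20*, an activator of the anaphase-promoting complex, was at 68.8 and 81.7 FPKM in controls and 19.5 and 14.9 after knockdown. In A549 and H2023 0 genes of these lists were called; the mitosis genes had medians of -0.18 and -0.44, and in H2023 all 20 were below both controls with siRNA 28, against 37.6% of all genes, and 8 were with siRNA 30, against 38.2%.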

How the data were processed

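Each deposited FPKM value gives the fragments of 1 gene in 1 RNA-seq library, scaled by the authors for transcript length and for the mapped fragments of the library. The study's methods name TopHat, hg19 and Cufflinks, whereas the submitters' processing notes list bcl2fastq 2.15.0, cutadapt 1.15, STAR 2.5.3a, SAMtools, Cuffnorm, HTSeq, DESeq2, R 3.2.0, hg19 and GRCh37.p13, so the aligner behind the files is not settled. A deposited table for each line also holds a mean normalised count per gene, a signal averaged by the authors with DESeq2 over the 4 libraries, and this column alone was used. The other columns hold the authors' own comparison (log2 fold change, its standard error, Wald statistic and p-values) and were not used. Read totals are not given in the sources used here, so depth within a line was compared through the lowest FPKM values.

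Gene identifiers were matched to GENCODE v44 lifted to GRCh37 (96.1% matched), whose coordinates are printed for genes, and 12710 values under 1e-06 FPKM were set to 0. The 48 genes, their roles and all other lists were chosen with earlier results of these data known. Within each line, control and NRF2 siRNA libraries were compared with limma 3.58.1 in R 4.3.3 on log2(FPKM + 1), with a variance trend, over genes with FPKM at least 1 in at least 2 of 4 libraries, and p-values were adjusted by Benjamini-Hochberg over all genes tested (threshold 0.05, 2 residual degrees of freedom per line). Fold changes on this scale understate the change of low genes. The average effect and differences between lines came from 1 limma fit of 12 libraries with a weight per line (1.71 for A549, 0.929 for H2023, 0.631 for H460), over genes that passed the filter in every line. The siRNAs were set against each other within the 6 knockdown libraries, with the line as covariate. The methods call the control libraries biological duplicates but do not say that cultures were separate, and p-values measure only the spread between these libraries. Tests were run on simulated data, where the per-line tests and the average effect gave somewhat more false calls than the threshold allows. No pair of libraries held identical values.

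Values in every library are given for the 12 genes with the smallest p in any line, the most abundant gene of each role and the gene that was higher on average, and from each other list some of the 3 genes with the smallest p on average are named. Further genes were given after their values were seen. Promoters and motif letters were read from RefSeq windows on GRCh38.p14. Alternatives varied the pseudocount, filter, trend, scaling, libraries in the fit and replicate block. Scripts used python 3.11.15, numpy 2.4.6 and pandas 2.3.3, and plots matplotlib 3.10.9.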

Additional observations from a re-analysis of the deposited data

Results flagged for a closer look

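The log2 fold change of *DNA2*, the nuclease and helicase gene, was -0.31 in A549 and -1.88 in H460. It was less negative in A549 by 1.58 ± 0.29 (log2, SE, limma, adjusted p = 0.0311). For *RFC3*, a clamp loader gene, the effect of knockdown was likewise less negative in A549 than in H460. This difference in effect was 1.29 ± 0.30 (log2, limma, adjusted p = 0.0483). Neither call was made without any 1 of the 4 control libraries of A549 and H460, where 0 of the 48 genes passed. *RFC1*, the large loader subunit gene, had a log2 fold change of 0.68 in H2023, where both NRF2 siRNA libraries were above both controls, and of -0.75 ± 0.30 in H460, where both were below. The limma test of H2023 against H460 gave 1.43 ± 0.39, adjusted p = 0.104, so this difference did not pass. *RPA2* stood at 0.23 in A549, above both controls with both siRNAs, and at -0.78 ± 0.22 in H460, below both (1.01 ± 0.46, adjusted p = 0.231 for the difference). *TIMELESS* stood at 0.12 in A549 and at -0.41 ± 0.23 in H460 in the same way (0.53 ± 0.40, adjusted p = 0.488 for the difference).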

How the results depend on the processing

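The replication genes of H460 kept a median below 0 in every alternative run, from -1.34 to -1.03 without 1 library and -1.001 without mitochondrial transcripts. The number called lower in H460 was 0 with no filter (0% of all genes), 38 in 1 fit of all 12 libraries (16.8%), and 0 to 32 without 1 library. In H2023, leaving out 1 library gave medians of -0.31 to 0.32, 0 to 3 genes lower and 0 to 5 higher. Where this left 1 library in a group, it was assumed to vary like the other group. The average count lower was 12 with no filter (3.91% of all genes), 15 without mitochondrial transcripts and 10 to 39 without 1 library. The difference between lines was called for 1 gene with no weight per line, with pseudocount 0.1 or with FPKM at least 1 in any 2 libraries (2.51%, 0.916% and 1.71% of all genes), for 3 with no filter (2.18%) and for 0 to 23 without 1 library. A549 against H460 gave 1 gene higher without mitochondrial transcripts and 0 to 16 without 1 library, and H2023 against H460 gave 5 with no weight per line (2.02%), 1 with pseudocount 0.1 (0.380%), 3 with no filter (0.747%) and 0 to 34 without 1 library. Among called genes, mitochondrial and median-ratio scaling moved the lower share from 46.0% to 80.7% and 61.4% for A549 against H460, and from 51.3% to 67.1% and 69.2% for H2023 against H460. The siRNA comparison with control libraries added gave 7 lower and 2 higher. Signs turned for *ORC4* in H460 (0.00973 without mitochondrial transcripts, -0.460 to 0.0527 without 1 library), *RPA3* in H460 (-0.0038 to 0.470 without 1 library), *ORC4* on average (0.0981 without mitochondrial transcripts, 0.0365 with median-ratio scaling, -0.16 to 0.16 without 1 library), *TIMELESS* on average (0.0940, 0.0318, and -0.184 to 0.173 under the same alternatives) and *RPA2* on average (-0.407 to 0.0182 without 1 library). Signs also turned under some of the 12 alternatives of a line for 10 of the 48 genes in A549 and 39 in H2023. The cause was not tested in any of these. The deviations of libraries that share a number, 0 or 1, correlated at -0.03 in A549, at 0.31 in H2023 and 0.16 in H460, and as nothing in the labels ties these libraries together the numbers were not taken as pairs. The replicate block called 34 genes lower in H460 (11.4% of all genes), 26 on average (15.1%), 0 in A549 and H2023, and 0 higher for A549 against H460 (0.285%). Read totals are not given in the sources used here, so how far depth limits these values is unknown.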

Other observations

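Of 10 genes of dNTP supply, 4 had a lower fitted level with siRNA 28 than with siRNA 30 and 6 a higher one, from -1.09 to 1.54 on the log2 scale, and limma called 0 of them, with 6 at an unadjusted p under 0.05 against 18.2% of all genes. *RRM1* and *DCK* were lower with siRNA 30 than with siRNA 28 in every line. *RRM1*, the large subunit of ribonucleotide reductase, was at 85.1 and 72.4 FPKM in controls and 66.2 and 35.3 after knockdown in A549, at 50.5 and 76.6 FPKM in controls and 40.2 and 16.3 after knockdown in H2023 and at 86.9 and 78.5 FPKM in controls and 38.1 and 5.99 after knockdown in H460, with siRNA 28 given before siRNA 30. The library of siRNA 30 was the lowest of its line each time, and on average over the lines *RRM1* was lower with NRF2 siRNA (-1.42 ± 0.36, adjusted p = 0.0133, limma). *DCK*, which encodes deoxycytidine kinase of the salvage pathway and overlaps the coding gene *MOB1B*, was at 11.5 and 10.6 FPKM in controls and 10.5 and 5.51 after knockdown in A549, at 11.4 and 10.97 FPKM in controls and 7.85 and 2.22 after knockdown in H2023 and at 11.7 and 9.55 FPKM in controls and 6.87 and 0.986 after knockdown in H460, again lowest with siRNA 30. The log2 difference between siRNA 28 and siRNA 30 was 1.54 ± 0.31, adjusted p = 0.137 for *RRM1* and 1.42 ± 0.26, adjusted p = 0.131 for *DCK*, so neither passed the limma test over all genes.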
